A study of Rattus norvegicus with 6 samples.

Results

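The enzymes of glucose breakdown examined here are the transporters and enzymes of glycolysis and the enzymes that make and move lactate. With them are those that use pyruvate in the mitochondrion or regulate its use, the pentose phosphate pathway and the TCA cycle. The genes were chosen by name, as a list of 46 gene symbols, with earlier results of these data known. Of the 46, 41 were measured among 17245 genes in all. Hk1, Pgam1 and Fh are not analysed here, and Pdha1 and Dlst lie only on probe sets that also carry the symbols of other genes. No filter on low values was applied, so all 41 entered the test.

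Glycolysis splits glucose into pyruvate in the cytosol and yields ATP and NADH, and proliferating cells draw on its intermediates for nucleotides, lipids and amino acids. The pentose phosphate pathway branches off after the first phosphorylation of glucose and supplies NADPH and ribose, the sugar of nucleotides. Pyruvate is either reduced to lactate or oxidized by pyruvate dehydrogenase, which the Pdk kinases switch off, and the acetyl-CoA so formed is burnt in the TCA cycle.

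Neural stem and progenitor cells (NSPCs) of the adult rat hippocampus, for which the labels name no genetic change, grown as free-floating neurospheres in serum-free N2 medium, were kept for 4 days in 1 of 2 conditions. Q-NSPCs, the quiescent cultures, received FGF2 at 10 ng/ml together with BMP4 at 50 ng/ml. A-NSPCs, the active cultures, received FGF2 at 10 ng/ml alone, so the mitogen was common to both groups and BMP4, a bone morphogenetic protein that arrests their division, was the difference. Total RNA of 3 biological replicates of each group was hybridised to 1 Affymetrix Rat Gene 1.1 ST array each, and the comparison asks how the transcripts of the quiescent state differ from those of the dividing state in this in vitro model.

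All values are log2 intensities after RMA, a procedure that corrects the background, brings the arrays to a common distribution and summarizes the probes of a probe set. A log2 fold change is Q-NSPC minus A-NSPC, is given with its standard error (SE) from limma, and is said to be a rise or a fall only at a Benjamini-Hochberg adjusted p under 0.05 over all 17245 genes. The number of arrays, 3 per group, limits the precision. Since each array reads the RNA of a whole culture, fewer cells of a type and less RNA per cell cannot be told apart.

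Array medians lay between 7.53 and 7.57 on the log2 scale. Q-NSPC replicate 1 stood apart from its group, with a mean distance (1 minus Pearson's r over all genes) of 0.012 to the other Q-NSPC arrays and 0.012 to the A-NSPC arrays, whereas Q-NSPC replicates 2 and 3 lay 0.00539 from each other and 0.028 from the A-NSPC arrays. Among markers of the cell state, 4 of 7 proliferation genes fell (Top2a, Ccnb1, Cdk1 and Ccna2; limma adjusted p from 0.0265 to 0.0487), with a list mean of 11.31, 10.19 and 10.37 in Q-NSPC replicates 1 to 3, against 11.53 to 11.64 in A-NSPC arrays. Of 8 NSPC markers 2 rose (Pax6 and Msi1) and 0 fell, where 7.91% of all genes rose and 6.2% fell. At an unadjusted limma p under 0.05, 3 were higher and 3 lower. Of the log2 fold changes 4 were above 0 and 4 below. Those below were Hes1 (-1.06), Fabp7 (-0.65), Nes (-0.57) and Vim (-0.14), with limma adjusted p from 0.0644 to 0.326. The list mean was 10.59 to 11.02 in Q-NSPCs and 10.78 to 10.95 in A-NSPCs. The neuron list averaged 11.07 to 11.48 in Q-NSPCs and 10.52 to 10.59 in A-NSPCs, with 3 of 6 genes higher (Snap25, Syt1 and Tubb3) and 1 lower (Rbfox3), and Gfap, the astrocyte filament gene, rose by 1.85 as 1 of 5 astrocyte genes, whose list mean was 7.79 to 7.96 in Q-NSPCs and 7.37 to 7.601 in A-NSPCs. No gene of the oligodendrocyte, microglia, endothelium or mural cell lists passed the threshold by limma (0 of 5, 0 of 6, 0 of 4 and 0 of 4, with 3, 0, 0 and 0 at an unadjusted p under 0.05). The oligodendrocyte list averaged 9.89, 8.83 and 8.89 in Q-NSPC replicates 1 to 3 and 9.704 to 10.08 in A-NSPCs. All 5 of its log2 fold changes were below 0, that of Sox10 being -1.21 without overlap (limma adjusted p = 0.0575). With replicate number as a block in limma, Mbp and Sox10 passed (adjusted p = 0.0345 and 0.0483). The means of the microglia, endothelium and mural cell lists stayed between 6.103 and 7.29 on every array, where the lower quartile of all genes was 6.41.

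In quiescent cultures the transcripts of the glucose transporter Slc2a1, the hexokinase Hk2 and the non-oxidative pentose phosphate enzymes Tkt and Taldo1 were lower. Isoform genes of phosphofructokinase moved in opposite directions. Of 13 TCA cycle genes 1 passed the threshold (7.69%, beside 14.1% of all genes), a count too small to set the cycle apart. Of the 41 genes, 11 passed the threshold (26.8%, beside 14.1% of all genes tested). Those that fell were 8 (19.5%, beside 6.2% of all genes): Slc2a1, the kinases Hk2, Pfkp, Pgk1 and Pkm, Tkt, Taldo1, and Idh3a of the TCA cycle. Those that rose were 3 (7.32%, beside 7.91% of all genes), namely the isoform genes Pfkm, Eno2 and Pdk2, a share that does not stand out from the background. The Q-NSPC and A-NSPC arrays did not overlap in 21 of 41 genes (51.2%, beside 34% of all genes). The median log2 fold change of the 41 was -0.06, against 0.01 over all genes, with 17 values above 0 and 24 below. These counts moved when 1 array was left out. Without Q-NSPC replicate 1, 4 genes rose and 13 fell; without Q-NSPC replicate 2, 2 rose and 2 fell; and without Q-NSPC replicate 3, 1 rose and 1 fell. Without A-NSPC replicate 1 the counts were 0 and 0, without A-NSPC replicate 2 they were 2 and 6, and without A-NSPC replicate 3 they were 1 and 0, whereas no fold change of the 11 genes turned its sign.

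**Figure D1:**
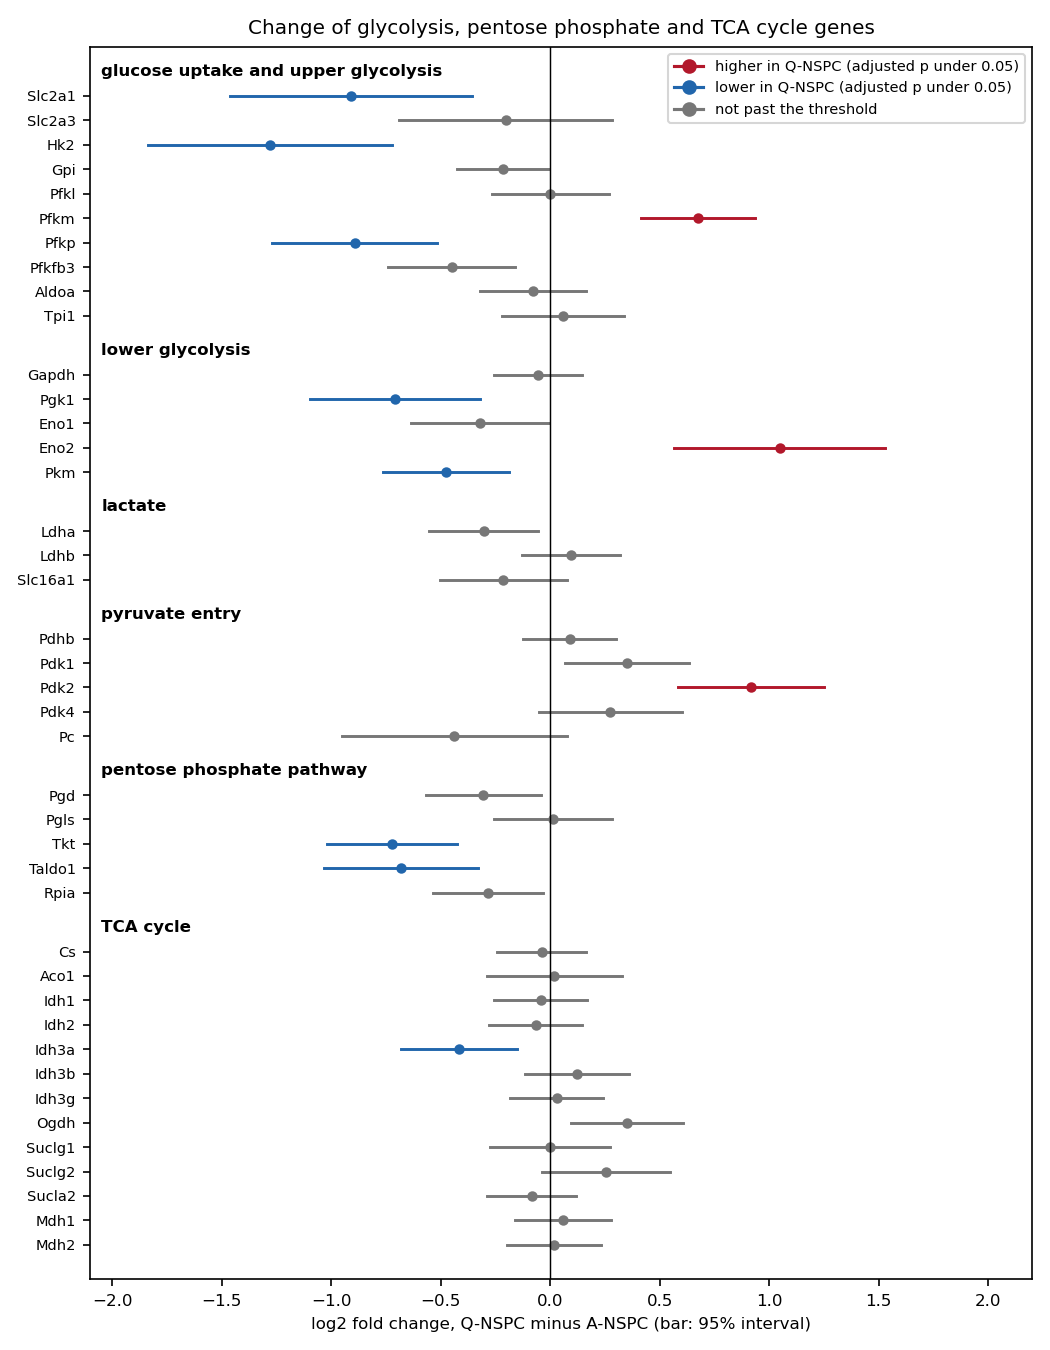
Log2 fold change, Q-NSPC minus A-NSPC, of the 41 measured genes in pathway order (vertical axis); points are limma estimates and bars 95% intervals, in red for the 3 genes that rose, blue for the 8 that fell and grey for the other 30. Of the 8 blue points 7 belong to glucose uptake, glycolysis and the pentose phosphate pathway, and 12 of the 13 TCA cycle genes lie between -0.08 and 0.35.

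The promoters of 5 of these genes are shown so that the short motifs counted near the start sites can be read in place. RefSeq promoters (build GRCr8, 250 bases before to 50 after the start) were matched for 36 of the 41 genes; Slc2a3, Pgk1, Pc, Pgls and Idh3a have no entry in the table. Both strands were searched for ACGTG, the core of the hypoxia response element, for CACGTG, the E-box bound by Myc and by carbohydrate response factors, which itself holds ACGTG, for GGCGCC, a site of BMP SMADs, and for TGACNNNGC, the core of the antioxidant response element. The 250 bases before the start are printed 5′ to 3′ on the strand of the gene, and capitals mark ACGTG or its reverse complement, CACGTG and GGCGCC. The set was picked after the values were known: the 3 genes that rose, Slc2a1 as the gene that fell with a match, and Pfkp. Pfkp is a relative of Pfkm without a match, as is Pfkl, which is not printed.
Pfkm, chr7:131113849-131114098, plus strand: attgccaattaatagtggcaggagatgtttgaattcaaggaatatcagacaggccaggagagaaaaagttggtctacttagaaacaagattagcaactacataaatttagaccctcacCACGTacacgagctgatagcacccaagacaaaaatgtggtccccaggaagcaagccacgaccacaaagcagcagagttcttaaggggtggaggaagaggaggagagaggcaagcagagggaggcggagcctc
Pfkp, chr17:68639563-68639812, plus strand: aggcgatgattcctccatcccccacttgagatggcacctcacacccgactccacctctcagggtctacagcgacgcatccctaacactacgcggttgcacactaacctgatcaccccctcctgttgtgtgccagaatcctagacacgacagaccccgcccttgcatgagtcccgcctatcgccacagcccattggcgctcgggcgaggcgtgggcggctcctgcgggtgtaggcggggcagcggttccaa
Eno2, chr4:159267221-159267470, minus strand: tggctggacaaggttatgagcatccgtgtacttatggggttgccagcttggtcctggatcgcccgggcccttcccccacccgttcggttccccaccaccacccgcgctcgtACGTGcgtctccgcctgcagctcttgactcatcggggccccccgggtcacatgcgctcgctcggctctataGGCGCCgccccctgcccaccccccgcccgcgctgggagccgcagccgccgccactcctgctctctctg
Pdk2, chr10:80483913-80484162, minus strand: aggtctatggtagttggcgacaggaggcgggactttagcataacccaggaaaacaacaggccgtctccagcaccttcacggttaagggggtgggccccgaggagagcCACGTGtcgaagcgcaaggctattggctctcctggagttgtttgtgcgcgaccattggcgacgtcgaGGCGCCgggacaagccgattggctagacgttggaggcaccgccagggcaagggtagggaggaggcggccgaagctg
Slc2a1, chr5:138002272-138002521, plus strand: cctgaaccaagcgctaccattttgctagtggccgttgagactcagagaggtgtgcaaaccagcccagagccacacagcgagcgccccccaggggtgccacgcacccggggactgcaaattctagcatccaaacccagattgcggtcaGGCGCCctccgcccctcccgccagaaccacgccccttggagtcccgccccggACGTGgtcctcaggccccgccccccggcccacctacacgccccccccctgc

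ACGTG occurred in the promoters of all 3 genes that rose (Pfkm, Eno2 and Pdk2), in 1 of the 6 genes that fell and have a promoter entry (Slc2a1) and in 9 of the 27 that did not pass, or 13 of 36 in all (36.1%). It occurred in 19.7% of all 27457 promoters and in 22.0% of the 14117 promoters of genes tested. CACGTG was found in 6 of 36 (16.7%; 6.65% of all promoters and 7.96% of those of genes tested), GGCGCC in 12 of 36 (33.3%; 11.8% and 16.9%) and TGACNNNGC in 7 of 36 (19.4%; 12.2% and 13.4%), the last in 0 of the genes that rose or fell. Of the genes that fell, Hk2, Pfkp, Pkm, Tkt and Taldo1 held none of the 4 motifs. The same holds for some genes that did not pass, Pfkl among them. This says only that these letters are not in this window. A match is a description of the sequence, and no binding was measured.

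Glucose uptake and the upper, ATP-consuming stretch of glycolysis held 10 measured genes. Of these 3 fell (Slc2a1, Hk2 and Pfkp, 30% beside 6.2% of all genes). Pfkm rose (1 of 10, 10% beside 7.91%) and 6 did not pass. The median log2 fold change was -0.21. Slc2a1 encodes GLUT1, the transporter that carries glucose into most cells of the brain. Its log2 intensity was 10.55, 9.89 and 9.54 in Q-NSPC replicates 1, 2 and 3, against 10.64, 11.02 and 11.04 in A-NSPC replicates 1, 2 and 3. The groups did not overlap, although Q-NSPC replicate 1 lay just under the lowest A-NSPC array. Slc2a1 fell by 0.91 (SE 0.24, 1.88-fold lower; limma adjusted p = 0.0425). Hk2, the inducible hexokinase that traps glucose as its phosphate, showed the greatest change of the 41 genes. It measured 8.37, 7.37 and 7.57 in Q-NSPC arrays and 9.03, 8.87 and 9.25 in A-NSPC arrays. All Q-NSPC arrays were below all A-NSPC arrays, replicates 2 and 3 by the wider margin, and Hk2 fell by 1.28 (SE 0.24, 2.43-fold lower; limma adjusted p = 0.0158).

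Phosphofructokinase commits the sugar to glycolysis and is built from the subunits of 3 genes, named for platelet (Pfkp), muscle (Pfkm) and liver (Pfkl), and in quiescent cultures these genes moved apart. Pfkp had values of 9.99, 9.69 and 9.62 in Q-NSPCs, against 10.82, 10.33 and 10.82 in A-NSPCs. Each Q-NSPC array was under each A-NSPC array, and Pfkp fell by 0.89 (SE 0.16, 1.86-fold lower; limma adjusted p = 0.0148). Pfkm had values of 11.71, 12.01 and 12.03 in Q-NSPCs, against 11.23, 11.28 and 11.21 in A-NSPCs. Here each Q-NSPC array was above each A-NSPC array, and the A-NSPC arrays were tightly grouped. Pfkm rose by 0.68 (SE 0.11, 1.6-fold; limma adjusted p = 0.0112). Pfkl, the gene of this group nearest to 0, had 9.97, 9.94 and 9.78 in Q-NSPCs and 9.73, 9.90 and 10.06 in A-NSPCs, with overlapping groups and a log2 fold change of -0.000563 (95% interval -0.27 to 0.27; limma adjusted p = 0.999).

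The other 5 genes of the group did not pass. Pfkfb3, which makes the allosteric activator of phosphofructokinase, came closest, at -0.45 (SE 0.13; limma adjusted p = 0.0508) with no overlap between groups, and it passed without Q-NSPC replicate 1 (-0.58, adjusted p = 0.00503). Gpi (glucose phosphate isomerase, -0.22), Slc2a3 (the transporter GLUT3, -0.20), Aldoa (aldolase, -0.08) and Tpi1 (triosephosphate isomerase, 0.06) had limma adjusted p from 0.155 to 0.816. Without Q-NSPC replicate 1 the log2 fold changes of Slc2a1, Hk2, Pfkp and Pfkm were -1.18, -1.58, -1.005 and 0.78. Each of these 4 calls was lost without Q-NSPC replicate 3, A-NSPC replicate 1 or A-NSPC replicate 3, those of Slc2a1 and Pfkp also without Q-NSPC replicate 2 and that of Slc2a1 also without A-NSPC replicate 2, with limma adjusted p of up to 0.135 for Slc2a1, 0.0732 for Hk2, 0.0709 for Pfkp and 0.0585 for Pfkm.

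**Figure D2:**
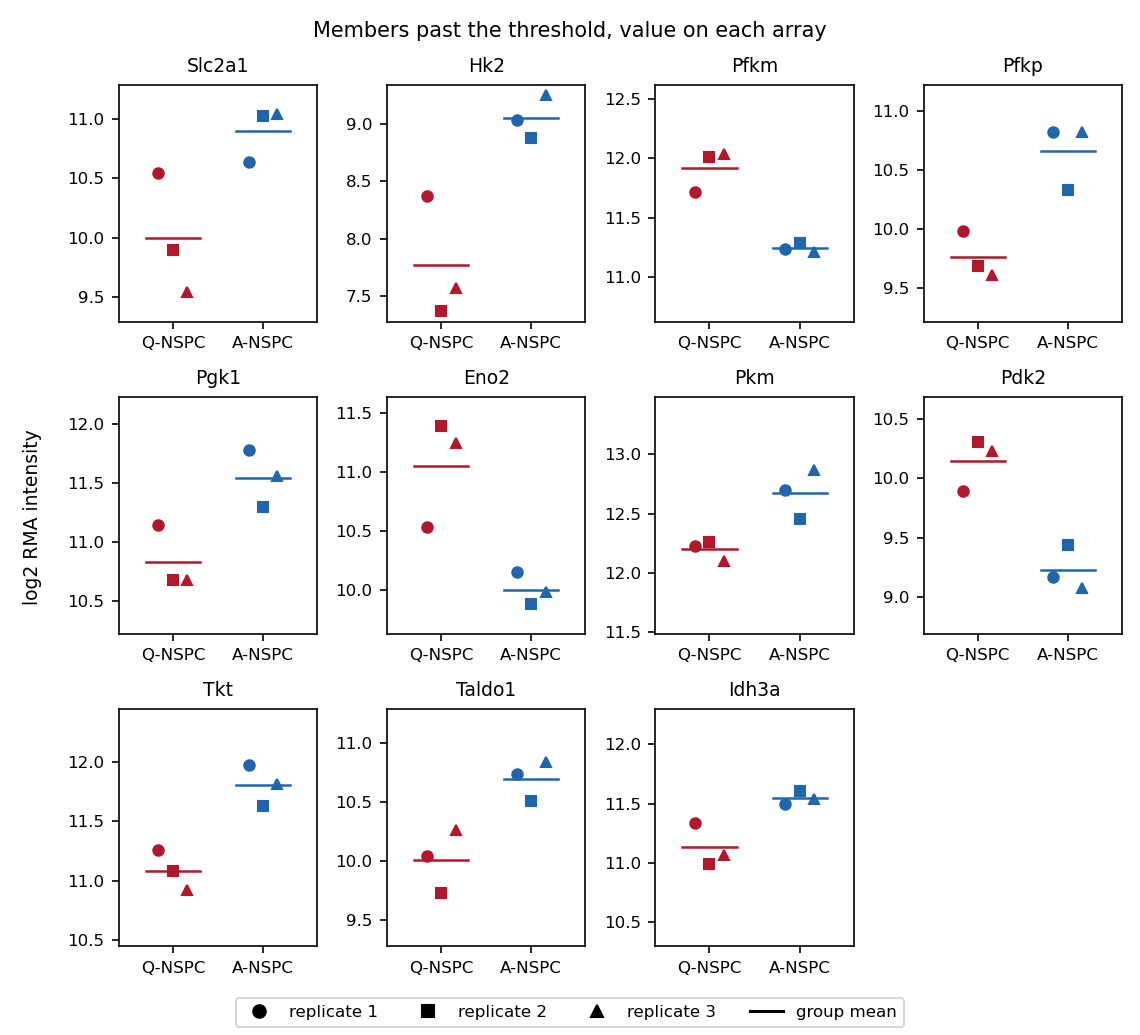
Log2 RMA intensity (vertical axis, 1 panel per gene with its own range) of the 11 genes past the threshold on each array, Q-NSPC at left in red and A-NSPC at right in blue; symbols give the replicate number and lines the group means. In every panel the 3 Q-NSPC arrays lie wholly above (Pfkm, Eno2 and Pdk2) or wholly below (the other 8 genes) the 3 A-NSPC arrays, and in 9 of the 11 panels Q-NSPC replicate 1 is the quiescent array nearest to the A-NSPC mean.

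In lower glycolysis, the ATP-yielding stretch down to pyruvate, 2 of 5 measured genes fell (Pgk1 and Pkm, 40% beside 6.2% of all genes). Eno2 rose (1 of 5, 20% beside 7.91%) and 2 did not pass. The median log2 fold change was -0.32. Pgk1, phosphoglycerate kinase, catalyses the first ATP-forming step. It measured 11.14, 10.68 and 10.68 in Q-NSPC arrays and 11.78, 11.29 and 11.56 in A-NSPC arrays, with Q-NSPC replicate 1 nearest to the active cultures and no overlap. Pgk1 fell by 0.71 (SE 0.17, 1.63-fold lower; limma adjusted p = 0.0307). Pkm, whose splice forms are the pyruvate kinases PKM1 and PKM2 and which the array reads as 1 gene, had 12.23, 12.27 and 12.10 in Q-NSPC arrays and 12.70, 12.46 and 12.87 in A-NSPC arrays. The Q-NSPC arrays lay close together below all A-NSPC arrays, and Pkm fell by 0.48 (SE 0.12, 1.39-fold lower; limma adjusted p = 0.0406). Its other 2 probe sets differed by -0.38 and -0.53.

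Eno2, the enolase isoform known from neurons and neuroendocrine cells, went the other way. Its values were 10.53, 11.39 and 11.24 in Q-NSPC arrays, against 10.15, 9.88 and 9.98 in A-NSPC arrays. All quiescent cultures were above all active ones, replicate 1 by the least, and Eno2 rose by 1.05 (SE 0.21, 2.07-fold; limma adjusted p = 0.0186). The neuron list moved with it on the same arrays, its mean being 11.07, 11.40 and 11.48 in Q-NSPC replicates 1 to 3, against 10.59, 10.55 and 10.52 in A-NSPC replicates 1 to 3, and 3 of its 6 genes rose while Rbfox3, the nuclear marker of mature neurons, fell by 0.69. The part of neuronal cells in the rise of Eno2 was not tested. Eno1, the widely expressed enolase, stood at -0.32 (SE 0.14; limma adjusted p = 0.163) and passed without Q-NSPC replicate 1 (-0.46, adjusted p = 0.0153). Gapdh, often taken as a reference gene and accompanied by many processed pseudogenes in rodent genomes, was nearest to 0, with 13.87, 13.86 and 13.81 in Q-NSPCs and 13.94, 13.88 and 13.89 in A-NSPCs. These arrays did not overlap, but the log2 fold change was only -0.06 (95% interval -0.26 to 0.14; limma adjusted p = 0.734).

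Without Q-NSPC replicate 1 the log2 fold changes of Pgk1, Pkm and Eno2 were -0.86, -0.49 and 1.31. All 3 calls were lost without Q-NSPC replicate 2, Q-NSPC replicate 3, A-NSPC replicate 1 or A-NSPC replicate 3, and that of Eno2 also without A-NSPC replicate 2, with limma adjusted p of up to 0.12 for Pgk1, 0.146 for Pkm and 0.0831 for Eno2.

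Related genes of the same step were then set against each other, as the log2 difference of the pair within each array, which shows only whether the 2 genes changed unequally. With 3 arrays per group the two-sided exact permutation test cannot give a p below 0.1, so none of the 10 pairs could pass 0.05. In 7 of the 10 pairs the groups did not overlap and p was 0.1 (adjusted over the 10 pairs, 0.143). Of single genes 34% did not overlap in the whole table, and no such share was taken for gene pairs. Pfkm and Pdk2 recur among these pairs, so the pairs are not independent. Pfkp minus Pfkm shifted most, with differences of -1.73, -2.32 and -2.42 in Q-NSPC arrays and -0.41, -0.96 and -0.39 in A-NSPC arrays. The ratio of Pfkp to Pfkm signal was thus 2.97-fold lower in quiescent cultures (change -1.57). Eno1 minus Eno2 was 2.44, 1.15 and 1.303 in Q-NSPC arrays and 2.83, 3.23 and 2.94 in A-NSPC arrays, a ratio 2.58-fold lower in quiescent cultures (change -1.37). In both pairs Q-NSPC replicate 1 was the quiescent array nearest to the active ones.

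Smaller shifts without overlap were seen for Pfkl minus Pfkm (-0.68), Pdk4 minus Pdk2 (-0.64), Pdk1 minus Pdk2 (-0.57), Ldha minus Ldhb (-0.40) and Suclg2 minus Sucla2 (0.34). Pdk4 was too dim, below the lower quartile of all genes, for the size of its pair's shift to be relied on. The groups overlapped for Slc2a1 minus Slc2a3 (change -0.70, exact p = 0.3, adjusted 0.375), Idh1 minus Idh2 (change 0.02, exact p = 0.5, adjusted 0.556) and Mdh1 minus Mdh2 (change 0.04, exact p = 0.7, adjusted 0.7). Idh1 minus Idh2, the cytosolic against the mitochondrial NADP-dependent enzyme, shifted least, at 0.57, 0.53 and 0.52 in Q-NSPCs and 0.55, 0.48 and 0.53 in A-NSPCs.

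**Figure D3:**
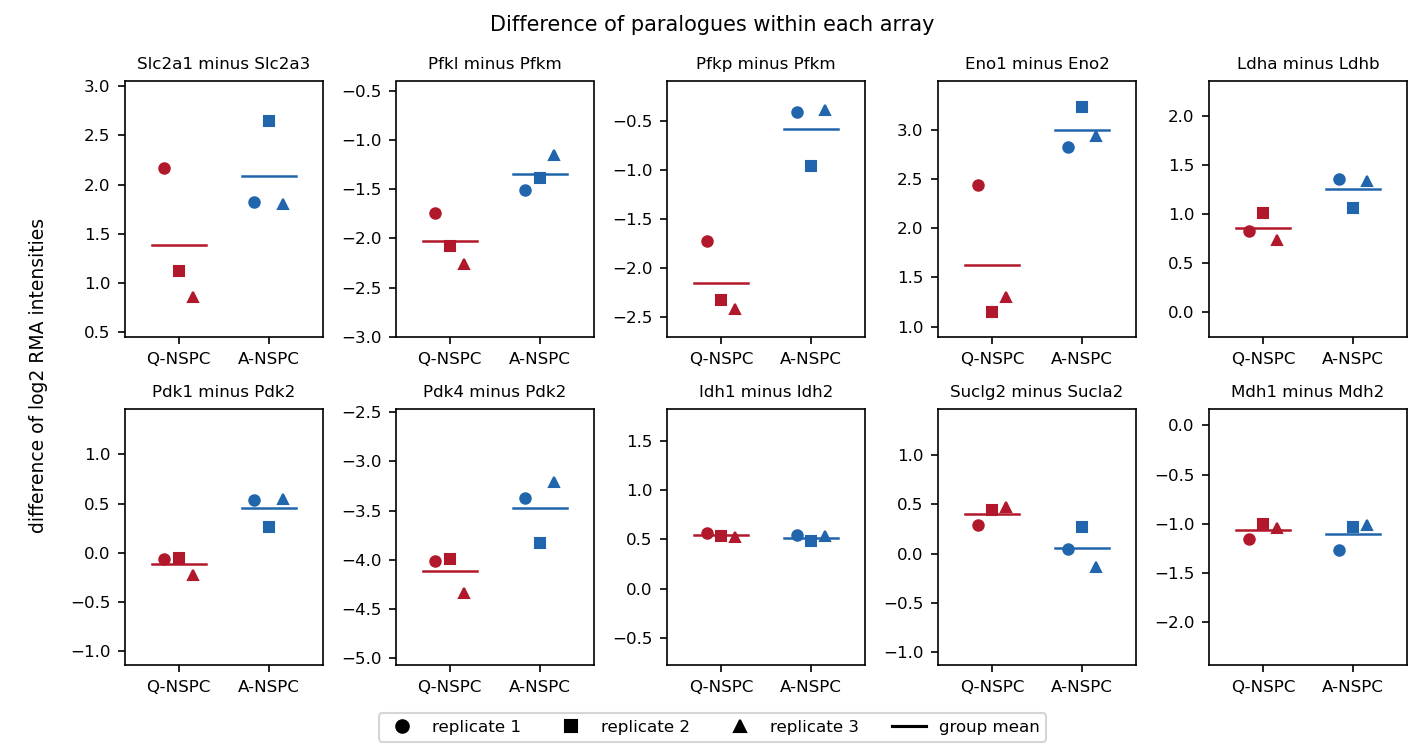
Difference of the log2 RMA intensities of 2 related genes within each array (vertical axis, each panel with its own offset), for the 10 pairs, with Q-NSPC at left in red and A-NSPC at right in blue; lines are group means. The groups are separate in 7 panels, most widely for Pfkp minus Pfkm (mean -2.15 in Q-NSPCs and -0.59 in A-NSPCs), and overlap for Slc2a1 minus Slc2a3, Idh1 minus Idh2 and Mdh1 minus Mdh2.

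None of the 3 lactate genes passed by limma (0 of 3, beside 14.1% of all genes), and the median log2 fold change was -0.21. At an unadjusted p under 0.05 there was 1, Ldha, which passed after adjustment with the eBayes trend. Ldha, the lactate dehydrogenase subunit favoured in lactate-producing tissues, had 13.19, 13.24 and 13.07 in Q-NSPCs and 13.47, 13.33 and 13.61 in A-NSPCs. The groups were separate, but the difference of -0.30 (95% interval -0.55 to -0.06) had a limma adjusted p of 0.101. Slc16a1, the lactate and pyruvate carrier MCT1, measured 10.59, 10.73 and 10.40 in Q-NSPCs and 10.96, 10.76 and 10.65 in A-NSPCs, with overlap and a difference of -0.21 (95% interval -0.50 to 0.07; limma adjusted p = 0.31). Ldhb, the subunit favoured in lactate-consuming tissues, was nearest to 0, at 12.37, 12.23 and 12.33 in Q-NSPCs and 12.12, 12.27 and 12.27 in A-NSPCs (difference 0.09, 95% interval -0.13 to 0.32; limma adjusted p = 0.589).

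For the use of pyruvate in the mitochondrion, 1 of 5 measured genes rose (20%, beside 7.91% of all genes) and 0 fell (0%, beside 6.2%). The median was 0.27. The gene that rose was Pdk2, a pyruvate dehydrogenase kinase, which inactivates the complex by phosphorylation. Pdk2 had 9.89, 10.30 and 10.23 in Q-NSPC arrays, against 9.17, 9.44 and 9.07 in A-NSPC arrays. The lowest quiescent culture, replicate 1, was above the highest active one. Pdk2 rose by 0.92 (SE 0.14, 1.89-fold; limma adjusted p = 0.0095), the smallest p of the 41 genes, by 1.04 without Q-NSPC replicate 1, and, of the limma fits that left out 1 array, its call was lost only without A-NSPC replicate 1 (adjusted p = 0.0538). The related kinases did not pass, with 0.35 for Pdk1 (limma adjusted p = 0.0975; 0.45 and 0.0228 without Q-NSPC replicate 1) and 0.27 for Pdk4 (limma adjusted p = 0.246). Pdk4 was dim, with a mean of 6.03 in Q-NSPCs and 5.76 in A-NSPCs, below the lower quartile of all genes.

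Pc, pyruvate carboxylase, which refills oxaloacetate, had 10.52, 9.66 and 9.89 in Q-NSPC arrays and 10.25, 10.75 and 10.38 in A-NSPC arrays. Replicate 1 of the quiescent cultures lay among the active arrays while the other 2 lay below them. The difference was -0.44 (95% interval -0.95 to 0.08; limma adjusted p = 0.238), and -0.69 without Q-NSPC replicate 1 (adjusted p = 0.0161). Pdhb, a subunit of pyruvate dehydrogenase itself, was nearest to 0, with 9.96, 9.93 and 9.92 in Q-NSPCs and 9.78, 9.95 and 9.83 in A-NSPCs (difference 0.09, 95% interval -0.13 to 0.30; limma adjusted p = 0.601).

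In the pentose phosphate pathway 2 of 5 measured genes fell (40%, beside 6.2% of all genes) and 0 rose (0%, beside 7.91%). The median log2 fold change was -0.31. Both that fell belong to the non-oxidative branch, which exchanges carbon between pentoses and glycolysis. Tkt, transketolase, measured 11.26, 11.08 and 10.92 in Q-NSPC arrays, against 11.98, 11.63 and 11.82 in A-NSPC arrays. All quiescent cultures were below all active ones, and Tkt fell by 0.72 (SE 0.13, 1.65-fold lower; limma adjusted p = 0.014). Taldo1, transaldolase, measured 10.05, 9.73 and 10.26 in Q-NSPC arrays, against 10.74, 10.51 and 10.84 in A-NSPC arrays. The groups were again separate, with replicate 3 as the quiescent culture nearest to the active ones, and Taldo1 fell by 0.68 (SE 0.15, 1.6-fold lower; limma adjusted p = 0.026).

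Pgd, the NADPH-forming dehydrogenase of the oxidative branch (-0.31, limma adjusted p = 0.114), and Rpia, ribose phosphate isomerase (-0.28, limma adjusted p = 0.126), did not pass, although their groups did not overlap. Both passed without Q-NSPC replicate 1, at -0.38 (adjusted p = 0.0417) for Pgd and -0.37 (adjusted p = 0.0285) for Rpia. Pgls, the lactonase of the oxidative branch, was nearest to 0, with 8.97, 9.16 and 8.95 in Q-NSPCs and 9.17, 9.02 and 8.86 in A-NSPCs (difference 0.01, 95% interval -0.26 to 0.28; limma adjusted p = 0.965). Without Q-NSPC replicate 1, Tkt differed by -0.81 and Taldo1 by -0.70. Both calls were lost without A-NSPC replicate 1 or A-NSPC replicate 3, that of Tkt also without Q-NSPC replicate 3 and that of Taldo1 also without Q-NSPC replicate 2, with limma adjusted p of up to 0.0655 for Tkt and 0.1 for Taldo1.

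In the TCA cycle 1 of 13 measured genes fell (7.69%, beside 6.2% of all genes) and 0 rose (0%, beside 7.91%). The median log2 fold change of 0.02 was the nearest to 0 of the 6 groups. The gene that fell was Idh3a, the catalytic subunit of the NAD-dependent isocitrate dehydrogenase, a regulated step of the cycle. Idh3a had 11.34, 10.99 and 11.06 in Q-NSPC arrays, against 11.50, 11.61 and 11.54 in A-NSPC arrays. The groups did not overlap, and Q-NSPC replicate 1 lay near the lowest active culture. Idh3a fell by 0.42 (SE 0.12, 1.34-fold lower; limma adjusted p = 0.0481), and differed by -0.52 without Q-NSPC replicate 1. This call, close to the threshold, was lost without any one of the other 5 arrays (Q-NSPC replicates 2 and 3 and A-NSPC replicates 1, 2 and 3; limma adjusted p of up to 0.161). The partner subunits Idh3b (0.12) and Idh3g (0.03) did not pass (limma adjusted p = 0.489 and 0.884).

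Ogdh, which decarboxylates oxoglutarate, differed most among the other 12 genes. It had 10.95, 11.11 and 10.90 in Q-NSPC arrays and 10.49, 10.65 and 10.78 in A-NSPC arrays, without overlap, and a log2 fold change of 0.35 (95% interval 0.09 to 0.61) that did not pass (limma adjusted p = 0.0731). Suclg1, the subunit that both succinyl-CoA ligases share, was nearest to 0, with 11.00, 11.09 and 10.99 in Q-NSPCs and 11.12, 11.16 and 10.80 in A-NSPCs (log2 fold change 0.0005, 95% interval -0.27 to 0.27). The entry enzyme Cs, citrate synthase, differed by -0.04 (95% interval -0.24 to 0.16), and the malate dehydrogenases by 0.06 for the cytosolic Mdh1 and 0.02 for the mitochondrial Mdh2. Aco1 (0.02), Idh1 (-0.04), Idh2 (-0.07), Suclg2 (0.25) and Sucla2 (-0.08) did not pass either. The intervals show how large a difference these arrays leave possible and do not show that the levels were equal.

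The place of Q-NSPC replicate 1 was followed gene by gene, as the deviation of each quiescent array from the A-NSPC mean. Replicate 1 was the nearest of the 3 to that mean in 9 of the 11 genes that passed (81.8%), beside 83.4% of the 2433 genes called in the whole table, and in 23 of all 41 genes (56.1%), beside 51.8% of all 17245. The exceptions among the 11 were Pkm and Taldo1. As a share of the mean deviation of replicates 2 and 3, replicate 1 reached 30.1% for Slc2a1, 40.1% for Idh3a, 40.3% for Eno2 and 42.9% for Hk2. The share was 60.5% for Pfkm, the median of the 11, 63.8% for Pdk2, 66.7% for Pfkp and 68.1% for Tkt, and it was highest for Pkm (91%) and Taldo1 (92.8%). The proliferation list showed the same placing, its mean in Q-NSPC replicate 1 (11.31) being nearer to the A-NSPC arrays (11.53 to 11.64) than those in replicates 2 and 3 (10.19 and 10.37). The part of remaining proliferation in these values was not tested.

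**Figure D4:**
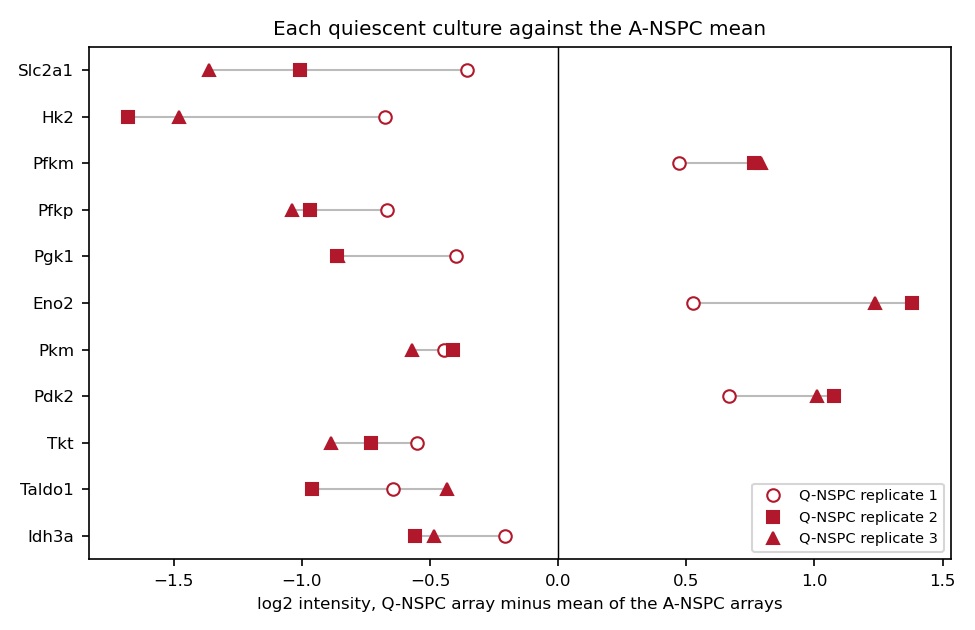
Log2 intensity of each Q-NSPC array minus the mean of the A-NSPC arrays (horizontal axis; the vertical line is the A-NSPC mean) for the 11 genes past the threshold. Open circles, replicate 1, are nearest to 0 in 9 genes, and for Slc2a1 replicate 1 reached 30.1% of the mean deviation of replicates 2 and 3 (filled symbols), against 92.8% for Taldo1.

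Beyond the 41, a second list held 91 other genes of the same pathways (isoforms, regulators, carriers and side branches), of which 79 were measured. Of these 9 rose (11.4%, beside 7.91% of all genes) and 6 fell (7.59%, beside 6.2%), the median log2 fold change was 0.03, and the groups did not overlap in 33 (41.8%, beside 34%).

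In glucose uptake and upper glycolysis 1 of 22 rose (4.55%, beside 7.91% of all genes) and 2 fell (9.09%, beside 6.2%). Slc2a13, the proton-coupled carrier of myo-inositol in the glucose transporter family, had 9.52, 10.10 and 9.90 in Q-NSPC arrays, against 8.16, 8.24 and 8.30 in A-NSPC arrays. The A-NSPC arrays were tightly grouped more than 1 log2 unit below the quiescent ones, and Slc2a13 rose by 1.61 (SE 0.15, 3.04-fold; limma adjusted p = 0.00204), a call that held without each array in turn. Pfkfb4 (fell by 0.41, limma adjusted p = 0.0467) and Pfkfb1 (fell by 0.38, limma adjusted p = 0.0419), relatives of Pfkfb3, were called by a narrow margin, and both calls were lost with the eBayes trend, and without any one array other than Q-NSPC replicate 1 (limma adjusted p of up to 0.157 and 0.15). In lower glycolysis 1 of 10 rose (10%, beside 7.91% of all genes) and 1 fell (10%, beside 6.2%). Eno4, an enolase-related gene known from sperm, measured 8.28, 8.31 and 8.83 in Q-NSPCs and 7.41, 7.505 and 7.60 in A-NSPCs without overlap, and rose by 0.97 (SE 0.16; limma adjusted p = 0.00978; 0.0572 without A-NSPC replicate 1). The fall of Minpp1, an inositol polyphosphate phosphatase, by 0.35 (limma adjusted p = 0.039) was seen on 1 of its 2 probe sets, and the other differed by 0.31, so its direction is not settled.

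Among the other lactate genes 0 of 7 passed by limma (beside 14.1% of all genes, with 1 at an unadjusted p under 0.05). Among the other genes of mitochondrial pyruvate uptake and use, 2 of 11 rose (18.2%, beside 7.91%) and 0 fell (0%, beside 6.2%). The pyruvate carrier gene Mpc1 did not pass (0.04, limma adjusted p = 0.914). Pdk3, a further pyruvate dehydrogenase kinase, had 11.08, 11.93 and 11.96 in Q-NSPC arrays, against 10.68, 10.58 and 10.62 in A-NSPC arrays. All quiescent cultures were above the active ones, replicate 1 by far the least, and Pdk3 rose by 1.03 (SE 0.22, 2.04-fold; limma adjusted p = 0.0223). Pdp1, the catalytic subunit of the opposing phosphatase, which switches pyruvate dehydrogenase back on, rose as well. It measured 9.5, 9.71 and 9.76 in Q-NSPCs and 9.16, 9.13 and 9.29 in A-NSPCs, without overlap and with a log2 fold change of 0.46 (SE 0.11; limma adjusted p = 0.0289). The calls of Pdk3 and Pdp1 were lost without any one array other than Q-NSPC replicate 1 (limma adjusted p of up to 0.0911 and 0.113). In the pentose phosphate pathway 0 of 8 rose (0%, beside 7.91% of all genes) and 1 fell (12.5%, beside 6.2%). This was H6pd, the enzyme of the endoplasmic reticulum that opens the oxidative branch there, with 8.41, 8.29 and 8.24 in Q-NSPCs and 8.69, 8.72 and 8.80 in A-NSPCs. The groups were separate and narrow, and H6pd fell by 0.43 (SE 0.10; limma adjusted p = 0.0253; up to 0.102 without any one array other than Q-NSPC replicate 1).

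Around the TCA cycle 5 of 21 rose (23.8%, beside 7.91% of all genes) and 2 fell (9.52%, beside 6.2%). Those that rose included mitochondrial carriers. Slc25a13, citrin, exchanges aspartate for glutamate across the inner membrane. It had 8.11, 8.40 and 8.54 in Q-NSPC arrays and 6.28, 6.87 and 6.95 in A-NSPC arrays, and on this probe set it rose by 1.65 (SE 0.19, 3.14-fold; limma adjusted p = 0.00383). Its other probe set differed by 0.05, but was dim (mean 4.80 in Q-NSPCs and 4.75 in A-NSPCs, where the lower quartile of all genes was 6.41). So dim a probe set may not show a change. The mean of both differed by 0.85, so the size depends on the probes. Slc25a10, the dicarboxylate carrier, measured 11.13, 11.89 and 11.65 in Q-NSPCs and 10.65, 10.71 and 10.59 in A-NSPCs, with replicate 1 the lowest quiescent culture and no overlap. Slc25a10 rose by 0.91 (SE 0.18, 1.88-fold; limma adjusted p = 0.0176). Slc25a11, the oxoglutarate carrier (0.55, limma adjusted p = 0.0459), Dhtkd1 (0.53, 0.0499) and Ireb2 (0.34, 0.0459) complete the 5, named after their values were seen, and their calls, all close to the threshold, were lost when arrays were centred on their medians and without any one array other than Q-NSPC replicate 1 (limma adjusted p of up to 0.161, 0.148 and 0.155).

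The genes that fell were Got1 and Acly, which act in the cytosol. Got1, the aspartate aminotransferase of the malate-aspartate shuttle, had 10.37, 10.07 and 10.10 in Q-NSPC arrays, against 10.99, 10.99 and 10.87 in A-NSPC arrays. The groups were far apart for their spread, and Got1 fell by 0.77 (SE 0.11, 1.7-fold lower; limma adjusted p = 0.00718), which held without each array in turn. Acly, which splits exported citrate into acetyl-CoA for lipid synthesis, had 12.29, 11.97 and 11.99 in Q-NSPC arrays, against 12.77, 12.55 and 12.68 in A-NSPC arrays. All quiescent cultures were lower, and Acly fell by 0.58 (SE 0.12, 1.5-fold lower; limma adjusted p = 0.0202). The calls of Acly and Slc25a10 were lost without Q-NSPC replicate 2 or 3 or A-NSPC replicate 1 or 3 (limma adjusted p of up to 0.0877 and 0.0788). Of the 15 other genes called, Q-NSPC replicate 1 was nearest to the A-NSPC mean in 14 (93.3%).

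**Figure D5:**
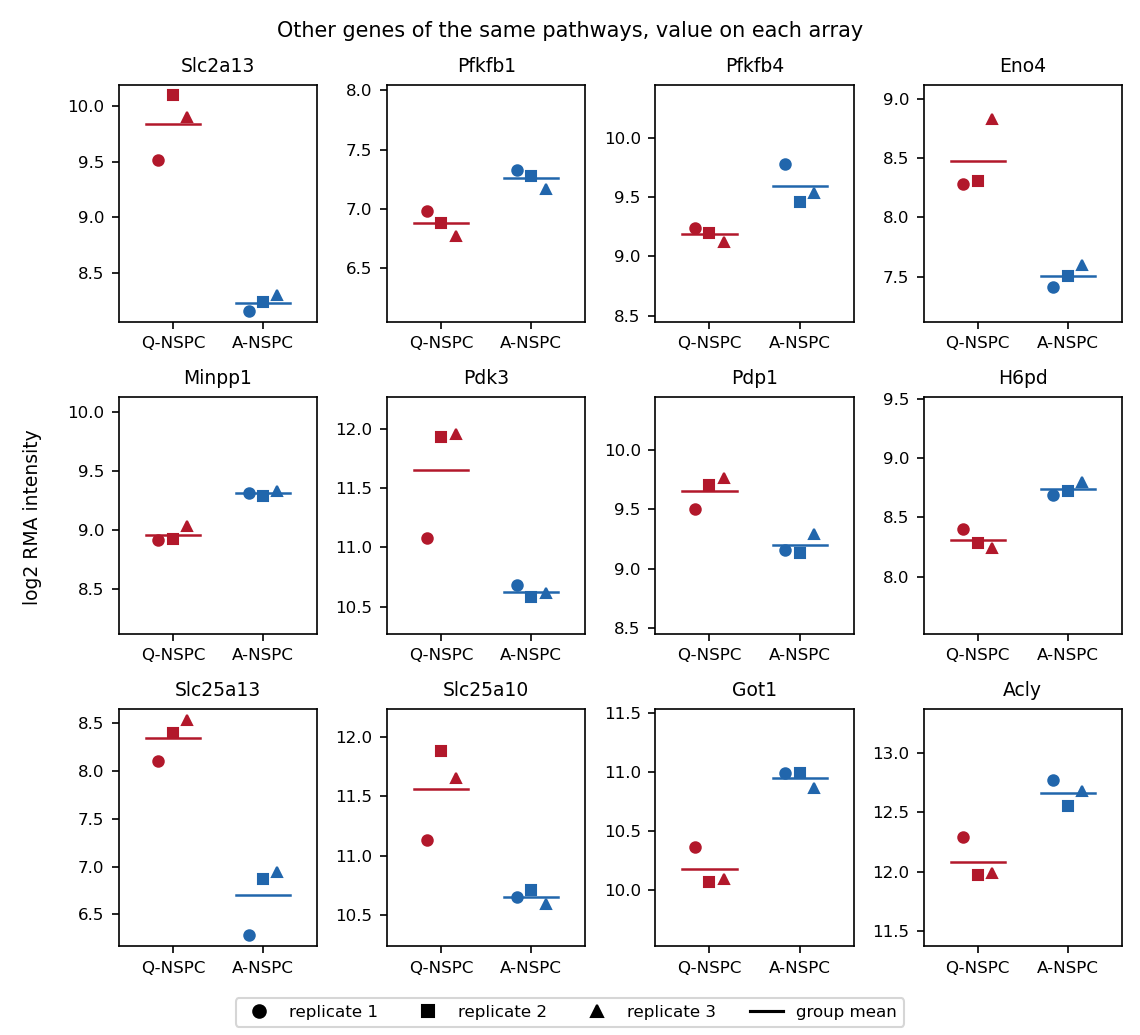
Log2 RMA intensity (vertical axis, 1 panel per gene with its own range) of 12 other genes of the same pathways on each array, Q-NSPC at left in red and A-NSPC at right in blue; symbols give the replicate number and lines the group means. Slc2a13 and Slc25a13 show the widest gaps (log2 fold changes of 1.61 and 1.65), and Pdk3 and Pdp1, which act on pyruvate dehydrogenase in opposite directions, are both higher in Q-NSPCs.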

How the data were processed

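Gene expression was measured on 6 Affymetrix Rat Gene 1.1 ST arrays, 1 per biological replicate, with 3 Q-NSPC and 3 A-NSPC replicates assigned from the sample labels. The deposited log2 values were made by the authors with RMA, which subtracts background, equalizes the arrays by quantiles and condenses the probes; the submitters' processing notes name Affymetrix Expression Console and Partek 6.10. They were not normalized again. Depth has no meaning for arrays, RMA values carry no detection call, and the number of arrays limits the precision.

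Of 29214 probe sets, 18644 carry 1 gene symbol in the platform annotation, 962 several and 9608 none; 18460 symbols were looked up by Entrez number and 0 changed. They name 17245 genes, and for the 879 with more than 1 probe set the brightest over the 6 arrays was used. The members and the lists of pathway genes and markers were chosen with earlier results of these data known.

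All genes were fitted with limma 3.58.1 in R 4.3.3 (1 mean per group, eBayes, two-sided), with Benjamini-Hochberg adjustment over the 17245 genes and a threshold of 0.05; the procedure was tested on simulated data. Pairs of related genes were compared with exact permutation tests. Values per array are given for each gene past the threshold and, in each pathway group, for the 2 genes with the largest change and the 1 nearest to 0; of the other pathway genes, those past the threshold, at most 4 per group by p. Same-numbered replicates did not deviate together from their group means over all genes (r = -0.055, 0.00924 and -0.0342, against up to 0.0828 for other pairs), so the numbers were not used as pairs. Alternatives were the replicate block, other eBayes settings, t-tests, an intensity filter, 2 scalings, 2 treatments of probe sets and leaving out each array. Promoter sequences are from RefSeq, build GRCr8; the build behind the arrays' annotation is not given in the sources used here.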

Additional observations from a re-analysis of the deposited data

How the results depend on the processing

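The 11 calls and their directions held with eBayes trend or robust settings, with dim genes left out, with arrays centred or quantile normalized again, and with either treatment of probe sets; of the other genes, Pfkfb3 also passed under the filter and both scalings, and Ldha with the trend. No called gene turned its sign under any alternative. With the replicate block in limma 3 genes rose and 5 fell, as Slc2a1 (adjusted p = 0.0693), Pkm (0.0759) and Idh3a (0.0867) were lost. Same-numbered replicates did not deviate together over all genes, a check that cannot exclude pairing in single genes. Of the 15 other pathway genes called, the replicate block lost Pfkfb1, Pfkfb4, Minpp1, H6pd, Ireb2 and Dhtkd1 (adjusted p from 0.0581 to 0.0984), the trend Pfkfb1, Pfkfb4, Minpp1 and Dhtkd1 (0.0517 to 0.0536), centring Ireb2, Dhtkd1 and Slc25a11, quantile normalization Ireb2 and Dhtkd1, and the robust fit and the test of all probe sets Dhtkd1; the mean of probe sets lost Minpp1 (0.945). The unpaired t-test called 0 genes in the whole table after adjustment, hence 0 higher and 0 lower among the 41 (4 and 13 at an unadjusted p under 0.05), and the paired t-test, which also uses the replicate block, called 1 gene in all and 0 and 0 of the 41 (2 and 5 unadjusted). Leaving out 1 array gave 419 (without A-NSPC replicate 1) to 4079 (without Q-NSPC replicate 1) genes called in all, against 2433 with all arrays; of the 41 genes, 0 to 4 rose and 0 to 13 fell. Such fits have fewer arrays by construction. The directions of 9 of the 10 pairs of related genes held throughout, and Mdh1 minus Mdh2, near 0 in all fits, ranged from -0.04 to 0.09. Idh1 minus Idh2, counted among the 9, was also near 0 (0.003 to 0.04), so its kept sign says little. The pair of Hk2 with Hk1 was not run, as Hk1 is not analysed here.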

Other observations

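Several other genes of these pathways came close to the threshold without passing it. Those given here were picked after their values were seen, not by closeness alone, and are not all. Slc2a12, of the glucose uptake list, stood at -0.69 without overlap (limma adjusted p = 0.0517, and 0.0374 with the replicate block). Slc25a1, which exports citrate from the mitochondrion, had 9.80, 9.66 and 9.54 in Q-NSPC arrays and 10.08, 9.95 and 10.07 in A-NSPC arrays (log2 fold change -0.37; limma adjusted p = 0.051). These arrays did not overlap, as for Acly, the enzyme that uses the exported citrate. Got2, the mitochondrial partner of Got1, stood at -0.41 (limma adjusted p = 0.0707) and Prps1, which turns ribose phosphate into the activated form used for nucleotides, at -0.66 (0.0811), both without overlap. Aldoc, the aldolase known from astrocytes, stood at 0.34 (0.0551), while the more widely expressed Aldoa was at -0.08. Me1, the cytosolic NADPH-forming malic enzyme, had 0.72 (0.0601) with overlapping arrays.

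For genes with more than 1 probe set, the direction on the other probe sets could be read. The 5 other probe sets of Gapdh gave log2 fold changes from -0.12 to -0.09, beside -0.06 on the one used. Eno1 gave -0.27 and -0.30 on its other probe sets, and Ldha gave -0.38, beside -0.32 and -0.30. Pgd gave -0.42 and -0.14, beside -0.31. The probe set with -0.14 was dim (mean 4.35 in Q-NSPCs and 4.49 in A-NSPCs), so its sign carries little weight. In these 4 genes and Pkm all probe sets had the same sign. Such probe sets name the same gene and were read on the same arrays, so they are not independent readings. The probe sets of Minpp1 and of Tigar disagreed in sign, Tigar with 0.15 on the one used and -0.14 on the other.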
